A study of Mus musculus with 79 samples.

Results

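Loss of RORα in mouse muscle was compared with control muscle at zeitgeber time 20 (ZT20, hours after lights on), in the dark phase of the day. The comparison was chosen by the labelled genotype and time: 3 RORA MKO libraries over 3 RORA CTRL libraries, 6 of the 79 libraries of the series, with all 14253 genes of the authors' table for that time. RORα, encoded by Rora, is an orphan nuclear receptor that binds DNA as a monomer and activates transcription of the clock gene Arntl, which encodes BMAL1. The repressors REV-ERBα and REV-ERBβ, encoded by Nr1d1 and Nr1d2, bind the same DNA elements, so that the clock activator is driven and silenced through shared sites. In skeletal muscle RORα is also known to act on genes of lipid and glucose metabolism.

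The knockout mice carried a muscle-specific knockout of RORα (MKO), and the control mice (CTRL) are given as WT for genotype in the labels. All libraries were made from whole muscle with a stranded poly-A kit, and the design text gives 3 to 4 mice for each time and genotype. Neither the driver of the deletion, the muscle sampled nor the age of the mice is given in the sources used here. The same comparison exists at ZT0, ZT4, ZT8, ZT12 and ZT16, each with 3 MKO and 3 CTRL libraries of its own mice, and no library is shared between times. Time of day therefore cannot be told apart from the mice sampled at that time. The series also holds a PER2 knockout, which was not used here.

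No values of single libraries were used, so their depth is unknown, and each value is the authors' log2 fold change, MKO over CTRL, with the authors' error after the ± sign. Genes count as called where the adjusted p in the authors' deposited table was below 0.05. All 14 listed genes of the fast sarcomere were measured, and their mean normalized counts were 3307 or more. The median error of a fold change was 0.0751 at ZT20 and 0.0720 to 0.0822 at the other 5 ZT.

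The targeted gene was lower in MKO muscle, at -1.82 ± 0.058 for Rora in the authors' deposited table for ZT20. The authors' deposited tables for the other 5 ZT had it between -1.51 and -1.96. At ZT20 4591 genes were called (32.2% of those tested), of which 2367 were higher in MKO (16.6%) and 2224 lower (15.6%). The share called higher was 14.8% at ZT0, 14.8% at ZT4, 13.7% at ZT8, 11% at ZT12 and 10.4% at ZT16, and the share called lower was 13.4%, 14.2%, 14.1%, 11.1% and 10.3% at the same times. ZT20 thus had the most calls of the 6 times (2947 to 4134 at the others), and it also had the largest median size of the fold change over all genes (0.0883, against 0.0570 to 0.0833 elsewhere). Most of these changes were small: the median size of a called change was 0.225, and 105 genes were higher and 135 lower by at least 1 on the log2 scale.

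**Figure D1:**
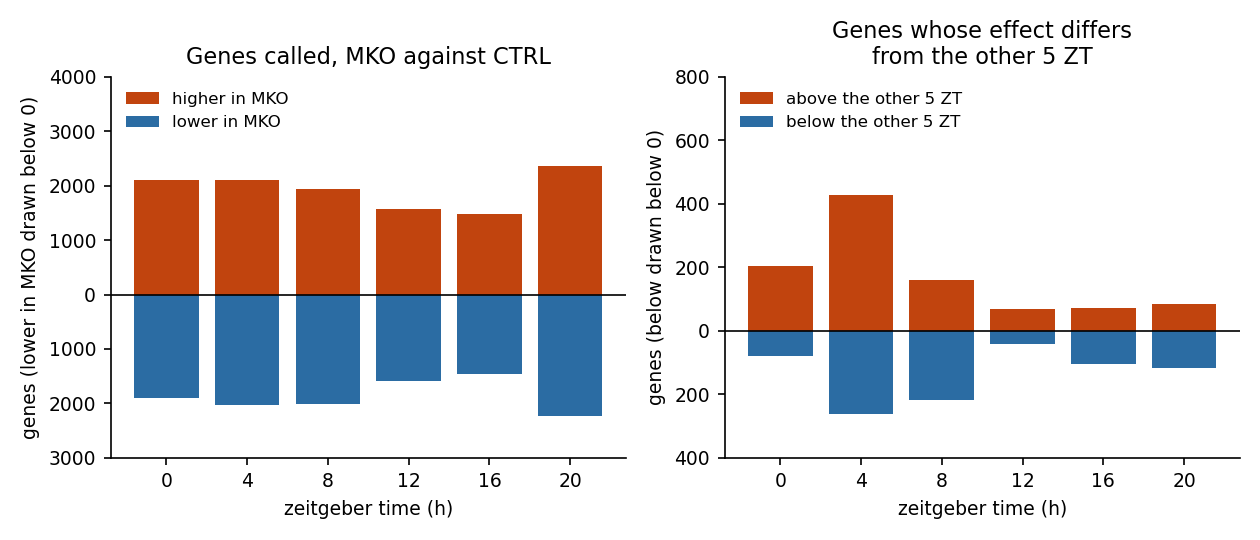
Genes called in each of the 6 comparisons (left) and genes whose effect at that time differed from the weighted mean of the other 5 times (right). The x axes give zeitgeber time in hours and the y axes count genes, with genes higher in MKO, or above the other 5 ZT, drawn upward and the others downward. ZT20 had the most calls (4591), but 199 genes that differed from the other times, fewer than ZT4 with 691.

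Among genes with a symbol whose mean normalized count reached 50, the largest changes at ZT20 were called in the same direction at most other times. In this set the 8 lowest were Htra4, a secreted serine protease, Pla2g7, a phospholipase of platelet-activating factor, the hyaluronan receptor Stab2, the myokine gene Ostn, Mss51, the integrin subunit Itga4, Lingo3 and the adaptor Shc2. In the authors' deposited table they ran from -4.26 ± 0.23 for Htra4 and -3.69 ± 0.11 for Pla2g7 to -2.17 ± 0.12 for Shc2. The 8 highest were Ighm (immunoglobulin mu heavy chain), the mitotic kinase Aurka, the imprinted noncoding RNA Rian, the cytokine Il15, the lipid transporter Abca4, Srrm4os, the kinesin Kif26b and Nr4a3, an orphan nuclear receptor induced by exercise. Their deposited values at ZT20 in the authors' deposited table ran from 2.15 ± 0.18 for Ighm and 1.82 ± 0.0765 for Aurka to 1.58 ± 0.29 for Nr4a3. None of these 16 genes passed the test of a difference between ZT20 and the other times. Immunoglobulin sequences are shared between loci, Srrm4os is named as an antisense RNA, and whether counting used strand is not stated, so Ighm and Srrm4os are uncertain. Nr4a3 was the least even over the day, at 0.13 at ZT0 and 2.47 at ZT16 in the authors' deposited tables.

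Across all genes the effect at ZT20 resembled that at the other times. Pearson's r between fold changes was 0.821 with ZT0, 0.768 with ZT4, 0.811 with ZT8, 0.828 with ZT12 and 0.847 with ZT16, over genes, which are not independent replicates. Of the 4591 called genes 1231 (26.8%) were called in the same direction at all 5 other ZT in the authors' deposited tables.

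Whether an effect was particular to ZT20 was tested gene by gene. The inverse-variance weighted mean of the other 5 ZT was subtracted from the ZT20 value, and the difference was divided by its combined error and adjusted by Benjamini-Hochberg over all 14253 genes. It passed for 199 genes (1.4%). ZT20 lay above the other times for 83 of them (0.582%, median difference 0.31) and below for 116 (0.814%, median -0.20). In most of these the mean of the other 5 ZT had the same sign and a smaller size (42 of the 83 and 82 of the 116). That mean could be near 0, as for Slain2 (-0.0023), so not all of them had an effect elsewhere. In 31 and 23 genes the mean had the opposite sign. The same test run for each time against the rest gave 284 genes at ZT0, 691 at ZT4, 379 at ZT8, 112 at ZT12 and 177 at ZT16. Without adjustment 1504 genes had a p under 0.05 (10.6%). On z values taken from the deposited p, 486 genes passed (3.41%), 239 above the other times (1.68%) and 247 below (1.73%), and 188 of the 199 were among them.

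The test used the authors' error of the fold change at each time. With the spread between the other 5 ZT as the error instead (limma on the 6 fold changes), 40 genes passed, 6 of them among the 199, and of the 36 genes that the naming rule took and that differed, only Sema5a passed. A difference at ZT20 below thus rests on the authors' errors, which do not cover ordinary change between times.

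**Figure D2:**
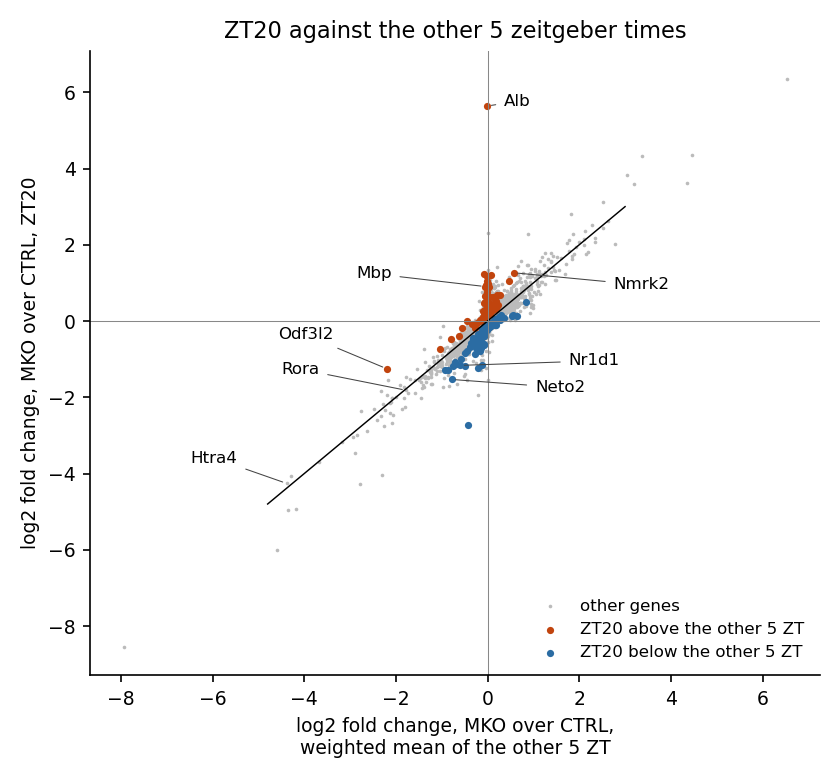
Log2 fold change at ZT20 (y axis) against the weighted mean of the other 5 ZT (x axis), MKO over CTRL, 1 point per gene for 14253 genes. The line marks equal values; coloured points are the 83 genes above and the 116 genes below the other times at an adjusted p under 0.05. Htra4 and Rora lie near the line, while Mbp and Alb stand near 0 on the x axis and above 0 at ZT20.

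The clock genes fell at ZT20 mostly as at other times, and 3 of them fell further. Of 7 genes that activate the clock or peak together with Arntl, 2 were called higher and 4 lower (Rora, Arntl, Cry1 and Nfil3), with a median of -0.37. Rora is the targeted gene, so its call follows from the design, and it is part of this count and median. Of 13 repressors and output genes 1 was called higher and 8 lower, where 15.6% of all genes were called lower, and the list median was -0.19 (all genes 0.0079). Arntl stood at -1.26 ± 0.10 in the authors' deposited table for ZT20, inside its range of -0.80 at ZT0 to -2.65 at ZT12. Its difference of 0.29 ± 0.12 did not pass (adjusted p 0.247).

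Nr1d1, which encodes REV-ERBα, had its lowest value of the day at ZT20, -1.16 ± 0.098 in the authors' deposited table. At the other times the authors' deposited tables gave -0.81 at ZT0, -0.42 at ZT4, -0.60 at ZT8, -0.19 at ZT12 and -0.99 at ZT16. The difference from the other 5 ZT was -0.57 ± 0.11 (adjusted p 0.000117 by the difference test). Nr1d2, encoding REV-ERBβ, was likewise lowest at ZT20, at -0.48 ± 0.053 in the authors' deposited table, against -0.12 to -0.35 at the other 5 ZT (difference -0.27, adjusted p 0.00136). The PAR-bZIP output factor Hlf stood at -1.27 ± 0.071 in the authors' deposited table for ZT20 and at -0.75 to -1.29 at the other times (difference -0.35, adjusted p 0.00278), with ZT0 as low as ZT20. Set against the neighbouring times ZT16 and ZT0 alone, the difference did not pass for any of the 3.

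For the other called clock genes the difference did not pass. The repressors Bhlhe41 (-1.40), Cry1 (-0.74), Cry2 (-0.39) and Nfil3 (-0.37) and the output factor Dbp (-0.43) were lower in MKO in the authors' deposited table for ZT20. Tef (0.13) and Npas2 (0.31) were called higher too, and Per3 (-0.18) and Bhlhe40 (-0.19) lower in the authors' deposited table. Clock (-0.01), Per1 (-0.07), Per2 (-0.04), Ciart (-0.04) and Usp2 (0.10) were not called in the authors' deposited table.

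**Figure D3:**
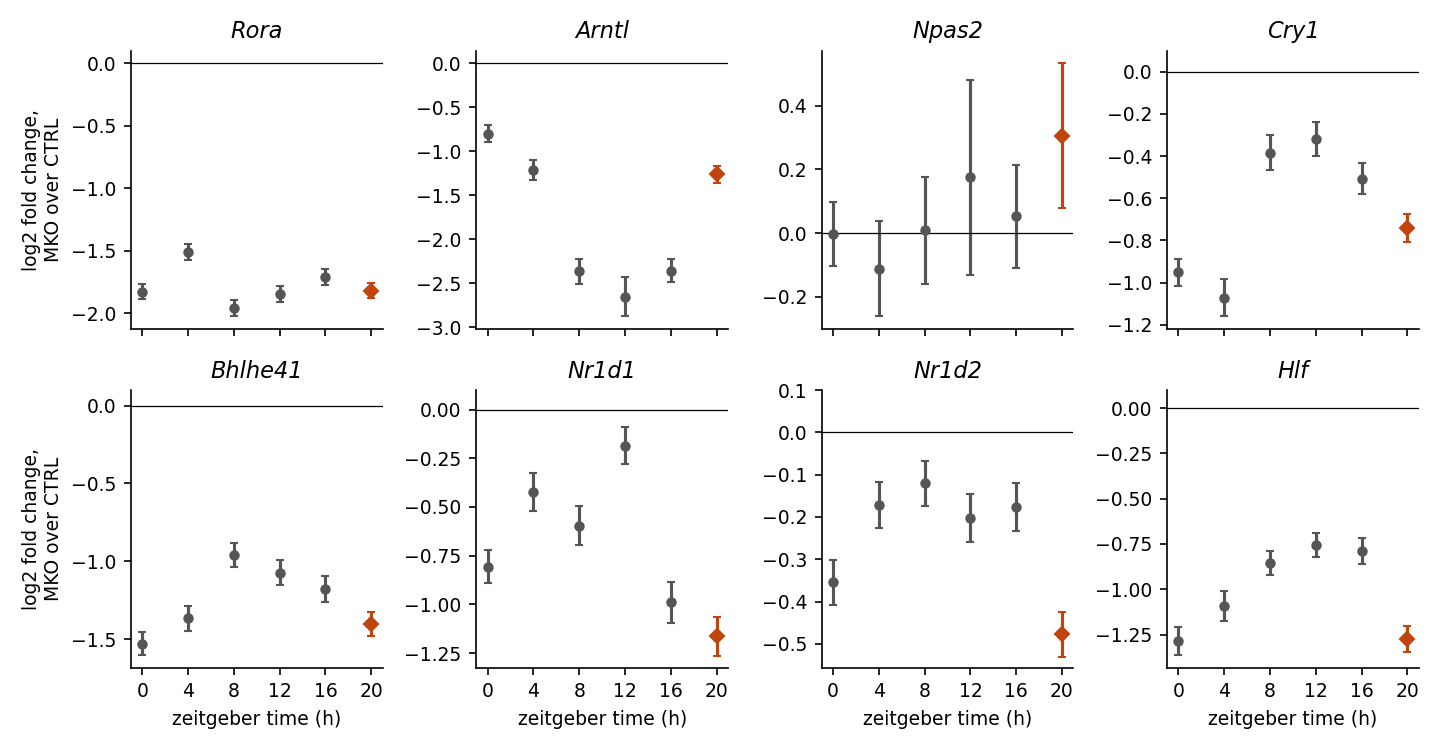
Log2 fold change of 8 clock genes, MKO over CTRL (y axes, with their own ranges), by zeitgeber time in hours (x axes), with bars for the authors' error and ZT20 as a diamond. Nr1d1 and Nr1d2 have their lowest points at ZT20, while Arntl at -1.26 lies between its ZT4 and ZT8 values.

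The promoters of the tested genes were searched for the letters TAGGTCA or TGGGTCA on either strand, the core of the element that RORα and the REV-ERBs bind. RefSeq windows of 250 bases before to 50 bases after the start (GRCm38.p6) were matched by symbol for 10580 of the 14248 symbols tested, and 6.29% of these had a match (7.35% of the 27025 genes in the promoter table). The share was 6.89% of 1727 genes called lower at ZT20 and 6.72% of 1846 called higher. Among genes lower by at least 1 it was 11 of 99 (11.1%), and among those higher by at least 1 it was 4 of 73 (5.48%). It was 4 of 94 for genes below the other ZT at ZT20 and 4 of 63 for genes above them. Of the clock genes examined, Arntl (at 1 of its 2 RefSeq starts) and Nfil3 had a match, and Nr1d1, Nr1d2, Hlf, Cry1 and Bhlhe41 had none in these windows. The 2 promoters with a match are shown 5′ to 3′ on the strand of the gene, with the matched letters in capitals; in Nfil3 they are read on the opposite strand. A match is a description and not a bound site.
Arntl (chr7:113207261-113207560, plus strand, match starting 30 bases after the start): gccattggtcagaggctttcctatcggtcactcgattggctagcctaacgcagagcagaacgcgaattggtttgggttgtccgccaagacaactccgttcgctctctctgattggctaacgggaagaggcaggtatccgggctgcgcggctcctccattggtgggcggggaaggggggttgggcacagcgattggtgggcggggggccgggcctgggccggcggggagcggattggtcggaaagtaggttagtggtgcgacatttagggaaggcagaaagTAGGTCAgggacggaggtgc
Nfil3 (chr13:52980990-52981289, minus strand, match starting 12 bases before the start): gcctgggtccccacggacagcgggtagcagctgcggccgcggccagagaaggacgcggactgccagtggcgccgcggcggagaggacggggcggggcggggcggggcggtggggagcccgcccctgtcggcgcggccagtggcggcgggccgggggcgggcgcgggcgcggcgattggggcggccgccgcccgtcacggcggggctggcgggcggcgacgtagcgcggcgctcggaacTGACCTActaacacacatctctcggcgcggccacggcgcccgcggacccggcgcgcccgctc

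Among the gene lists, ZT20 stood farthest from the other times in genes of myelinating Schwann cells, the glia that wrap motor axons inside muscle. All 14 measured genes of the 16 listed were called higher in MKO at ZT20, where 16.6% of all genes were. Pmp2 and Gjb1 were not found by symbol among the genes of the authors' table. The median of the 14 was 0.74, against -0.16 at ZT0, -0.26 at ZT4, 0.17 at ZT8, 0.02 at ZT12 and 0.02 at ZT16. Of the 14, 13 had their highest value of the day at ZT20 (18.1% of all genes did). The difference from the other 5 ZT passed for 6 of the 14, where 0.582% of all genes passed in that direction. In whole muscle, more cells of a type and more RNA per cell cannot be told apart.

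Myelin basic protein, Mbp, stood at 0.90 ± 0.16 in the authors' deposited table for ZT20. The authors' deposited tables gave it -0.37 at ZT0, -0.51 at ZT4, 0.22 at ZT8, 0.0053 at ZT12 and -0.0021 at ZT16. It was thus below 0 at ZT0 and ZT4 and near 0 at ZT12 and ZT16, and the difference at ZT20 was 0.96 ± 0.17 (adjusted p 2.5e-05 by the difference test). Periaxin, Prx (0.93 ± 0.16), its partner Drp2 (0.84 ± 0.13) and the myelin protein Pmp22 (0.67 ± 0.12) were as high in the authors' deposited table, with differences of 0.93, 0.85 and 0.72. Cldn19, a claudin of the Schwann cell sheath that fell outside the naming rule and was chosen after its values were seen, had a difference of 0.96 ± 0.25 (adjusted p 0.0218).

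The other 8 members did not pass the difference test. They lay between 0.27 and 0.82 at ZT20 in the authors' deposited table, and 6 of them had a mean normalized count under 50. On z values taken from the deposited p, 12 of the 14 passed (1.68% of all genes did in that direction), and with limma 0 did. Of 10 listed neuron genes 8 were not found by symbol among the genes of the authors' table. The other 2 lay at -0.07 and 0.11 at ZT20, neither called.

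Markers of white fat moved in the same direction. Of 13 measured genes 9 were called higher at ZT20 and 0 lower, where 16.6% and 15.6% of all genes were. Of the 13, 10 had their highest value of the day at ZT20 (18.1% of all genes did). Their median was 0.37 at ZT20 and ran from -0.27 at ZT0 to 0.07 at ZT8 over the other times. Adipsin, Cfd, stood at 0.92 ± 0.28 and adiponectin, Adipoq, at 0.72 ± 0.31 in the authors' deposited table for ZT20. At ZT0 the authors' deposited table gave them -0.27 and -0.73. No member passed the difference test (8 did on z values from the deposited p), and the errors of these genes were wide. Car3, a carbonic anhydrase of fat and slow fibres, stood at 0.86 ± 0.10 in the authors' deposited table, inside its range elsewhere.

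**Figure D4:**
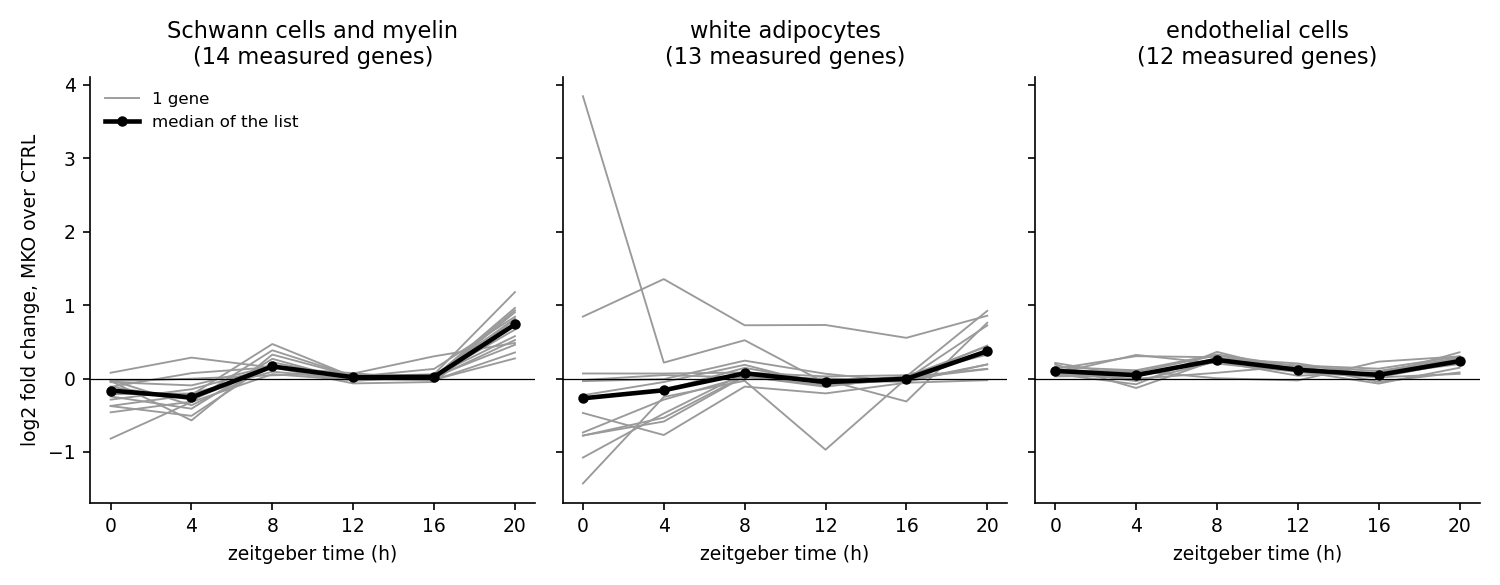
Log2 fold change, MKO over CTRL (y axis), of the measured marker genes of 3 other cell types by zeitgeber time in hours (x axis), with 1 grey line per gene and the list median in black. The Schwann cell median is 0.74 at ZT20 and between -0.26 and 0.17 at the other times; the endothelial median is 0.24 at ZT20 and 0.25 at ZT8.

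Other cell types had smaller list medians at ZT20 and no gene past the difference test. Over all genes 16.6% were called higher and 15.6% lower. Of 12 endothelial markers 10 were called higher (median 0.24), among them the junction cadherin Cdh5 (0.28 ± 0.052) and Egfl7 (0.30 ± 0.060) in the authors' deposited table, but the median was 0.25 at ZT8. Smooth muscle and pericytes had 9 higher and 1 lower of 11, and red blood cells 5 higher and 1 lower of 6. Of 16 fibroblast markers 2 were called higher, of 15 macrophage markers 3, of 10 satellite cell markers 2 higher and 1 lower, of 3 lymphocyte genes 1 (Ighm), and of 10 tendon genes 0. In the list of collagens and basement membrane 8 of 17 genes were called higher and 0 lower. Of the 17, 15 had their highest value at ZT20 (18.1% of all genes did). Col4a1 stood at 0.39 ± 0.10 and perlecan, Hspg2, at 0.29 ± 0.060 in the authors' deposited table, and no member of that list passed the difference test. Col18a1, a collagen outside that list, did pass it (difference 0.31, adjusted p 0.043).

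Alb, Apoa2, Cyp2e1 and Cyp2f2, genes known from liver, fall outside the naming rule and were chosen after their values were seen. Alb, which encodes serum albumin, stood at 5.64 ± 0.78 in the authors' deposited table for ZT20. Elsewhere it lay between -0.04 and 0.07 in the authors' deposited tables, and its mean normalized count over all libraries was 18.3. The lipoprotein gene Apoa2 (1.35 ± 1.42), Cyp2e1 (1.03 ± 0.42) and Cyp2f2 (1.25 ± 0.26) were also called higher in the authors' deposited table for ZT20 and lay between -0.24 and 0.20 at every other time. The difference from the other times passed for Alb and Cyp2f2 and not for Apoa2 or Cyp2e1. With limma it passed for all 4, but limma does not use the errors of the fold changes, such as 1.42 for Apoa2. The limma result therefore decides nothing for these genes. Which of the 3 MKO libraries carried these reads was not analysed here, and the part of liver, fat or nerve genes in the other results was not tested.

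Outside the clock, Neto2, Arrdc3 and Errfi1 had the largest differences below the other times among genes named by rule that passed the difference test. Neto2, an accessory subunit of kainate receptors, stood at -1.53 ± 0.14 in the authors' deposited table for ZT20 and at -0.26 to -1.29 elsewhere, a difference of -0.75 ± 0.16 (adjusted p 0.00136). Arrdc3, an arrestin-like protein that limits β-adrenergic signalling, stood at -0.78 ± 0.088 in the authors' deposited table. In the authors' deposited tables for the other times it was -0.09 at ZT0, -0.14 at ZT4, 0.22 at ZT8, -0.26 at ZT12 and -0.60 at ZT16, so that ZT16 and ZT20 were the low pair (difference -0.62 ± 0.098, adjusted p 5.88e-07). Errfi1, a feedback inhibitor of the EGF receptor, stood at -0.63 ± 0.12 in the authors' deposited table and between -0.22 and 0.00 elsewhere (difference -0.56).

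The next in size were the centriolar gene Ccp110, the ubiquitin ligase adaptor Wsb1, the scaffold Dlg5, Tceal7, the matricellular growth factor Ccn2 and Nfatc2, a transcription factor activated by calcineurin. Their differences lay between -0.43 and -0.52. Nfatc2 (-1.29 ± 0.10) and Tceal7 (-1.14 ± 0.083) were called lower at all 6 times in the authors' deposited tables, and Dlg5 (-0.72 ± 0.090) at all but ZT12. Ccn2 (-0.58 ± 0.10) was also called lower at ZT4 and ZT8, Ccp110 (-0.61 ± 0.10) at ZT0 and ZT4, and Wsb1 (-0.68 ± 0.082) at ZT0, ZT4 and ZT16, in the authors' deposited tables. The differences of Dlg5 and Nfatc2 did not pass without ZT12.

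Errfi1 belongs to the list of glucocorticoid-responsive genes, of which 2 of 15 were called higher and 5 lower at ZT20, with a median of -0.07. The shares over all genes were 16.6% and 15.6%. In 7 of the 15 the ZT20 value was the lowest of the day (16.2% of all genes), and the list median was -0.02 to 0.11 at the other 5 ZT. The transcription factors Cebpd (-0.63 ± 0.23, with a mean normalized count of 33.1) and Klf9 (-0.19 ± 0.041) were called lower in the authors' deposited table, and the chaperone gene Fkbp5 was higher (0.49 ± 0.13). Errfi1 was the 1 member past the difference test.

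Genes above the other times, outside the Schwann cell list, were mixed in function. Odf3l2 was lower in MKO at every time, with -1.25 ± 0.15 at ZT20 and -1.25 at ZT16, against -2.17 to -3.30 at ZT0 to ZT12 in the authors' deposited tables (difference 0.96 ± 0.17). Nmrk2, the muscle nicotinamide riboside kinase of NAD salvage, stood at 1.27 ± 0.14 in the authors' deposited table. It was also high at ZT12 (1.33) and ZT16 (1.08) in the authors' deposited tables, and 0.10 to 0.41 at ZT0 to ZT8. ZT20 was thus the end of a raised span from ZT12 on, and the difference of 0.70 ± 0.16 did not pass without ZT4.

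Glb1l2, the axon guidance protein Sema5a and the integrin subunit Itgb4 had differences of 0.57, 0.55 and 0.54. Sema5a was near 0 at the other 5 ZT, between -0.12 and 0.02, and stood at 0.50 ± 0.15 at ZT20 in the authors' deposited tables. Itgb4, which Schwann cells are known to express, stood at 0.47 ± 0.12 at ZT20 and at -0.48 at ZT4 in the authors' deposited tables.

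Genes called at ZT20 and at no other time were many, but few differed from the other times by the test. There were 785 of them (17.1% of the calls, 5.51% of all genes), 477 higher and 308 lower in MKO. Of the 477, 368 had the same sign in the mean of the other 5 ZT, and of the 308, 256 did. The difference passed for 27 of the 785. Genes called at 1 time alone numbered 488 at ZT0, 733 at ZT4, 537 at ZT8, 255 at ZT12 and 266 at ZT16. Of these, 26, 98, 43, 3 and 7 differed from the rest by the same test run for that time. Many calls at a single time were thus not particular to ZT20.

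Among those of the 27 that met the count minimum, the highest were Sema5a, Septin4 (0.40 ± 0.086), the actin-binding Lasp1 (0.36 ± 0.061), the tetraspanin Cd9 (0.31 ± 0.061), Col18a1 (0.30 ± 0.084), the collagen that yields endostatin, and Ly6e (0.28 ± 0.062), all from the authors' deposited table for ZT20. The lowest were small decreases in abundant genes. The Golgi protein Golph3 (-0.16 ± 0.035), the transcription factor Mef2c (-0.15 ± 0.037), the cytokine signalling suppressor Socs6 (-0.15 ± 0.047) and the microtubule protein Slain2 (-0.15 ± 0.026) were among them in the authors' deposited table. Casein kinase 1α, Csnk1a1, a kinase of the clock and Wnt pathways, stood at -0.12 ± 0.021 and the cullin Cul2 at -0.095 ± 0.0305 in the authors' deposited table. At the other 5 ZT the authors' deposited tables had all 6 between -0.05 and 0.08.

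In 173 of the 4591 genes called at ZT20, out of 14253 tested, the call was opposite to a call at another time. Of the 173, 91 were higher and 82 lower at ZT20. The opposite call was at ZT0 in 61 genes, ZT4 in 92, ZT8 in 23, ZT12 in 17 and ZT16 in 13 (a gene can count at more than 1 time), so it lay mostly early in the light phase. The same count was not made for the other times. ZT4 and ZT0 had 691 and 284 genes of their own that differed from the rest, so whether this pattern belongs to ZT20 was not tested. The difference passed for 37 of the 173. Those taken by size included Mbp, Adipoq, Itgb4, the haemoglobin-binding acute-phase protein gene Hp and the solute carrier Slc15a5. Hp stood at 0.52 ± 0.23 at ZT20 and at -1.08 at ZT4 in the authors' deposited tables, and Slc15a5 at -0.51 ± 0.185 at ZT20 and at 0.81 at ZT8. The differences of Adipoq, Hp and Slc15a5 did not pass.

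An effect present at all 5 other times was not called at ZT20 in 34 of the 14253 genes, 18 higher and 16 lower elsewhere. The difference passed for 7, which are named here although they fall outside the naming rule and were chosen after their values were seen. Mef2a, a muscle transcription factor, stood at 0.04 ± 0.033 at ZT20 and at 0.15 to 0.44 elsewhere in the authors' deposited tables (difference -0.23, adjusted p 7.84e-07). The pyruvate dehydrogenase subunit Pdha1 (0.01 ± 0.022 at ZT20, 0.07 to 0.24 elsewhere) and the mitochondrial pyruvate carrier subunit Mpc2 (0.05 ± 0.027, 0.11 to 0.27 elsewhere) were alike in this in the authors' deposited tables. Ogdhl and Fam110b were higher elsewhere too, with differences of -0.52 and -0.41 at ZT20. The neurotrophin receptor gene Ntrk2 and the myosin light chain gene Myl6 were lower elsewhere, with differences of 0.45 and 0.18.

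Most measured genes of mitochondrial energy metabolism were called higher in MKO at ZT20. Of 29 nuclear genes of oxidative phosphorylation 23 were called higher and 1 lower, and of 14 genes of the tricarboxylic acid cycle 12 were higher and 1 lower, where 16.6% and 15.6% of all genes were. The list medians were 0.15 and 0.20, inside the ranges of 0.13 to 0.25 and 0.14 to 0.26 at the other 5 ZT. The ATP synthase subunit Atp5b (0.23 ± 0.020), the complex I subunit Ndufb5 (0.34 ± 0.028) and the isocitrate dehydrogenase subunit Idh3a (0.34 ± 0.018) were examples in the authors' deposited table, and pyruvate carboxylase, Pcx (-0.51 ± 0.044), was the 1 cycle-related gene called lower. No member of these lists passed the difference test.

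Genes of fat handling were split by list, and no member of these lists passed the difference test. Fatty acid oxidation had 10 of 23 genes higher and 3 lower, among them carnitine acetyltransferase, Crat (0.33 ± 0.025), and the acyl-CoA synthetase Acsl1 (-0.28 ± 0.047) in the authors' deposited table. Lipid uptake and storage had 11 of 18 higher and 1 lower, against shares of 16.6% and 15.6% over all genes. At ZT0, ZT4, ZT8, ZT12 and ZT16 the genes called higher numbered 17, 14, 18, 4 and 2 for oxidation. For uptake and storage they numbered 9, 8, 14, 6 and 5. The lipid droplet coat gene Plin3 stood at 1.56 ± 0.056 and the lipoprotein receptor gene Vldlr at -0.46 ± 0.050 in the authors' deposited table. Fatty acid synthesis had 4 higher and 3 lower of 12, with Srebf1, its main regulator, at -0.89 ± 0.078 and malic enzyme, Me1, at -0.85 ± 0.034 in the authors' deposited table, and sterol synthesis had 5 higher and 3 lower of 20.

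In glycolysis the list median at ZT20 was the highest of the day. Of 13 genes 7 were called higher and 1 lower, where 16.6% and 15.6% of all genes were. In 7 of them the highest value of the day was at ZT20 (18.1% of all genes). The median was 0.081, against 0.0044 to 0.058 at the other 5 ZT. Muscle enolase, Eno3, stood at 0.42 ± 0.038 at ZT20 and at 0.14 to 0.29 elsewhere in the authors' deposited tables, a difference of 0.20 ± 0.042 (adjusted p 0.00092). Muscle phosphoglycerate mutase, Pgam2, stood at 0.32 ± 0.036 at ZT20 and at 0.12 to 0.24 elsewhere in the authors' deposited tables, a difference of 0.15 (adjusted p 0.0169). Pgam2 did not pass without ZT0 or with the trend of length and GC content removed.

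Further metabolic lists were called in both directions, where 16.6% of all genes were called higher and 15.6% lower at ZT20. Glycogen genes had 4 higher and 7 lower of 16. The glycogen-anchoring protein gene Stbd1 stood at 1.42 ± 0.069 and glycogenin, Gyg, at -0.35 ± 0.028 in the authors' deposited table. Insulin signalling had 5 higher and 5 lower of 15, and branched-chain amino acid breakdown 2 higher and 3 lower of 16. No member of the glycogen, insulin or branched-chain lists passed the difference test. Of 12 PPAR, ERR and PGC-1 regulators 4 were higher and 1 lower. Ppargc1a, which encodes PGC-1α, was not called (-0.11 ± 0.056 in the authors' deposited table), but it was called higher at 4 of the other 5 ZT and its difference passed (-0.26, adjusted p 0.00629). It was named after its values were seen, as were Trim63, Stac3 and Gpx4 below.

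**Figure D5:**
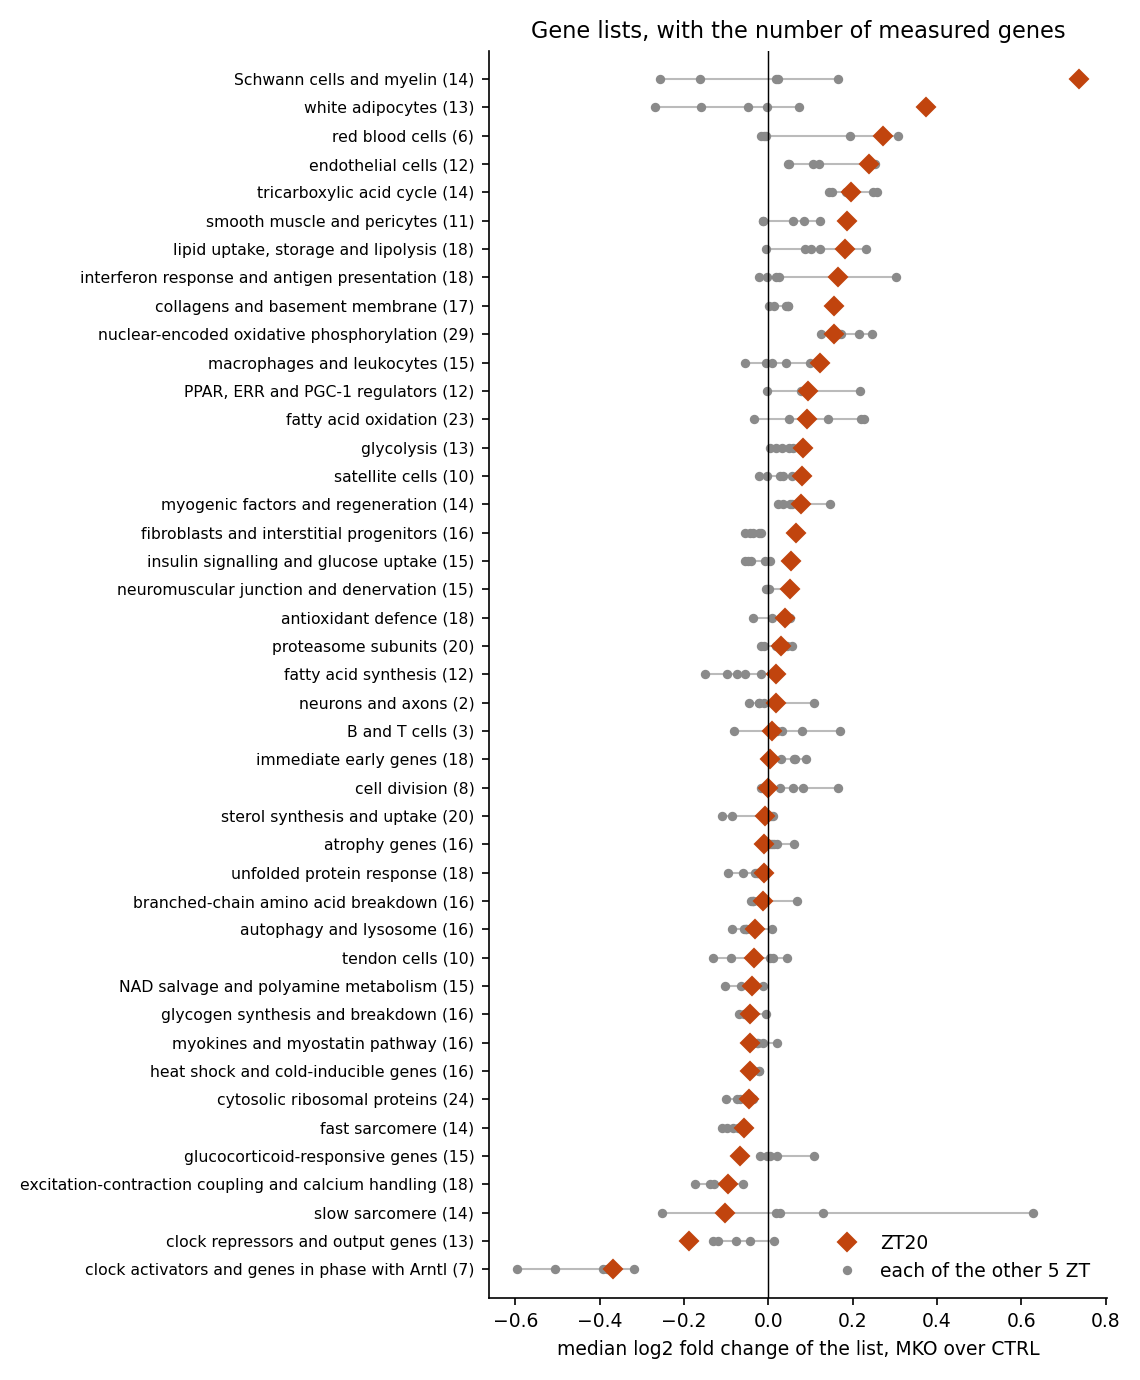
Median log2 fold change of each gene list, MKO over CTRL (x axis), at ZT20 (diamond) and at the other 5 ZT (grey dots), with 1 row per list. The Schwann cell median of 0.74 stands away from its other times, and the oxidative phosphorylation and tricarboxylic acid cycle medians of 0.15 and 0.20 lie among theirs.

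Of 18 genes of excitation-contraction coupling and calcium handling 9 were called lower in MKO at ZT20, 2 higher and 7 neither, where 15.6% of all genes were called lower. The list median was -0.096, inside its range of -0.17 to -0.061 at the other 5 ZT. Myoregulin, Mrln, an inhibitor of the sarcoplasmic calcium pump, stood at -0.89 ± 0.050, Asph at -0.72 ± 0.027, junctophilin 2, Jph2, at -0.49 ± 0.037 and triadin, Trdn, at -0.49 ± 0.037 in the authors' deposited table. Stac3, a component of the calcium release complex, was slightly higher (0.072 ± 0.021 in the authors' deposited table), and its difference of 0.12 passed. The slow sarcomere list had 1 higher and 1 lower of 14, and its median of -0.10 compared with 0.63 at ZT0 and -0.25 at ZT4. The fast sarcomere list had 3 higher and 5 lower of 14, where 16.6% of all genes were called higher.

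Growth, wasting and synapse genes were called in both directions, where 16.6% of all genes were called higher and 15.6% lower. Myogenic factors had 5 higher and 3 lower of 14, with the fetal actin gene Actc1 at 1.46 ± 0.19 in the authors' deposited table, and Mef2a and Mef2c passed the difference test on the low side. Atrophy genes had 4 higher and 6 lower of 16. The ubiquitin ligase atrogin-1, Fbxo32, stood at -0.70 ± 0.058 and MuRF1, Trim63, at -0.18 ± 0.035 in the authors' deposited table, and the difference passed for Trim63 (-0.19). The neuromuscular junction list had 4 higher and 4 lower of 15, with the synaptic kinase gene Musk at -0.99 ± 0.098 in the authors' deposited table. Myokines and the myostatin pathway had 4 higher and 5 lower of 16, with Gdf11 at -1.89 ± 0.094 in the authors' deposited table. No member of the neuromuscular junction or myokine lists passed the difference test.

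Polyamine synthesis and NAD salvage had 3 higher and 5 lower of 15, where 16.6% of all genes were called higher and 15.6% lower. Ornithine decarboxylase, Odc1 (-1.76 ± 0.094), spermine oxidase, Smox (-1.04 ± 0.12), and spermine synthase, Sms (-0.74 ± 0.042), were lower in the authors' deposited table. The weighted means of the other 5 ZT were -1.44, -1.18 and -0.68, and none of these differences passed. Antioxidant genes had 5 higher and 7 lower of 18. Gclc, the catalytic subunit of glutathione synthesis, stood at -0.54 ± 0.068 in the authors' deposited table (difference -0.31, adjusted p 0.00697), and the lipid peroxidase gene Gpx4 at 0.10 ± 0.035, its smallest rise of the day (difference -0.15). 

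No gene of the remaining lists passed the difference test. Their counts stand beside shares over all genes of 16.6% called higher and 15.6% called lower at ZT20. Ribosomal proteins had 2 higher and 9 lower of 24, proteasome subunits 3 and 3 of 20, autophagy 4 and 5 of 16, and cell division 2 and 3 of 8, with the spindle gene Tpx2 at -1.05 ± 0.13 in the authors' deposited table. Immediate early genes had 2 higher and 1 lower of 18, heat shock genes 0 and 4 of 16, and the unfolded protein response 0 and 2 of 18. Interferon and antigen presentation had 7 higher and 0 lower of 18, with a median of 0.16 that was above all other times but ZT4 (0.30).

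Fold changes at ZT20 also moved with the base composition of transcripts. Over 14229 genes with a reference length and GC content, fold change and GC content had a Spearman's rho of 0.320 at ZT20 and 0.0810 to 0.167 at the other 5 ZT. A smooth trend with length and GC content took 5.94% of the variance of the fold changes at ZT20, against 0.843% to 2.28% elsewhere. The 83 genes above the other times had a median GC content of 54.5% and the 116 below them 44.7%, where all genes had 49.7%. The part of this in the results was not tested beyond removing the trend, after which 126 genes differed at ZT20 in place of 199.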

How the data were processed

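Of 79 mouse muscle libraries, 36 belong to the RORα set (18 MKO, 18 CTRL). Per the submitters' processing notes, the tools were DESeq2, R 4.1, STAR, Trimmomatic, MultiQC and bcl2fastq 2.20.0.422; per the labels, the authors kept genes with 10 reads in 3 samples. The deposited tables give, for each gene and time, the mean normalized count (a signal over libraries), the p-value, raw and adjusted, and the log2 fold change with an error. At ZT20 the median ratio of fold change over error to the z value of the deposited p was 0.869, so fold changes appear shrunken. GRCm39 and mm9 are both named as builds, so no gene coordinates from the tables were used; 893 symbols came from GENCODE M21 and 21 genes had no name.

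Tests planned for counts were replaced by those that comparison tables allow: the ZT20 fold change minus the inverse-variance mean of the other 5 ZT, two-sided normal p, Benjamini-Hochberg over 14253 genes. The test was also run on simulated data with noise of the size of the deposited errors and no ordinary change between times. Those data could not show how the test fares with such change. Tools were Python 3.11.15, NumPy 2.4.6, pandas 2.3.3, SciPy 1.17.1, matplotlib 3.10.9, R 4.3.3 and limma 3.58.1. Genes were named by rule, from a mean normalized count of 50 upward: the 8 highest and 8 lowest fold changes, the 10 highest and 10 lowest differences, the 6 highest and 6 lowest called at ZT20 alone that differed, up to 6 with opposite calls, up to 4 per list by smallest p and all clock genes (both at any count); 2 genes that the rule took are not reported here. Members and the 43 gene lists (608 of 641 genes measured) were chosen with earlier results of these data known. P-values measure the spread between samples as the authors' fit estimated it, with 3 samples a group. The mean normalized count of a gene was the same at every time. The fit may therefore have drawn its spread from all times, which was not tested. Alternatives covered thresholds, count filters, scaling, the length and GC trend, times left out and the source of the error.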

Additional observations from a re-analysis of the deposited data

Results flagged for a closer look

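The effect of the knockout at ZT20 differed from the mean of the other 5 ZT, by the test of that difference, for 199 genes, of which 35 that the naming rule took are listed here with ZT20 minus the other times on the log2 scale. Schwann cell and myelin genes stood above the other times: Mbp by 0.96, Prx by 0.93, Drp2 by 0.85 and Pmp22 by 0.72. Itgb4 (0.54) and Sema5a (0.55) were above them too.

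The clock and output genes Nr1d1 (-0.57), Hlf (-0.35) and Nr1d2 (-0.27) lay below the other times. So did the signalling genes Neto2 (-0.75), Arrdc3 (-0.62), Errfi1 (-0.56), Dlg5 (-0.46), Nfatc2 (-0.43) and Ccn2 (-0.43), and also Ccp110 (-0.52), Wsb1 (-0.47), Tceal7 (-0.44) and Gclc (-0.31).

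Smaller differences below the other times were found for Socs6 (-0.18), Mef2c (-0.16), Golph3 (-0.15), Slain2 (-0.15), Cul2 (-0.13) and Csnk1a1 (-0.11). Metabolic genes above the other times were Nmrk2 (0.70), Eno3 (0.20) and Pgam2 (0.15). The remaining ones above them were Odf3l2 (0.96), Glb1l2 (0.57), Lasp1 (0.33), Septin4 (0.33), Col18a1 (0.31), Cd9 (0.27) and Ly6e (0.24).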

How the results depend on the processing

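Calls at ZT20 were 3318 (1573 higher, 1745 lower) with p taken from fold change over error in place of the deposited p. With p taken in that way, they were 2909 (1255 and 1654) once the length and GC trend was removed. They were 3303 (1456 and 1847) once the median of all genes was subtracted instead. Calls lower in MKO thus outnumbered those higher under these 3 settings, whereas the deposited p gave 2367 higher and 2224 lower. Genes that differed at ZT20 numbered 486 (239 above, 247 below) on z values from the deposited p, 40 (35 and 5) with limma, 109 (49 and 60) against ZT16 and ZT0 alone, 79 (34 and 45) at an adjusted p under 0.01, 126 (48 above) with the trend removed, and, chosen after seeing the data, 131 (71 below) without ZT0 and ZT4. Leaving out 1 time gave 153 (ZT4) to 265 (ZT16). Of Schwann cell genes 12 differed on z values and 0 with limma. Calls at ZT20 alone were 302 (185 higher, 117 lower) with an adjusted p of at least 0.2 elsewhere and 339 (219 and 120) at an adjusted p under 0.01. They were 406 (201 and 205) with the trend removed, where p was also taken from fold change over error at all 6 times. At a mean normalized count of at least 50, 278 were higher. Opposite calls were 58 (33 and 25) at an adjusted p under 0.01, and effects lacking at ZT20 were 17 (8 and 9) with an adjusted p of at least 0.2 there. The causes were not tested. No difference of a named gene changed sign past its threshold. For list medians the 1 alternative run was to subtract the median of all genes, which was 0.0079 at ZT20. A shift that small could hardly move a list, so it decides nothing about them. The length and GC trend was not removed from the list medians.

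Of the 36 named genes that differed, 18 did not pass against ZT16 and ZT0 alone, 11 without ZT0 and ZT4 and 8 with the trend removed (Col18a1, Cul2, Golph3, Ly6e, Mef2c, Pgam2, Septin4 and Socs6). Leaving out 1 time ended the difference of Ly6e, Pgam2 and Socs6 (ZT0), Col18a1, Nmrk2 and Septin4 (ZT4), Col18a1 (ZT8), Dlg5 and Nfatc2 (ZT12) and Ly6e (ZT16).

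No paired analysis was possible because the tables hold comparisons and no values per library, and replicate numbers were given in accession order. For the same reason leaving out replicates, DESeq2 and edgeR were not run, and depth is unknown.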
